A study of Mus musculus with 8 samples.

Results

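The genes described here build and remodel the extracellular matrix of quadriceps muscle or mark the fibroblasts and tendon cells that secrete it. They comprise 46 listed genes, taken through every probe set that the array's annotation pairs with exactly 1 of their symbols. They fall into 33 secreted matrix genes and 13 markers of the fibroblast surface, tendon or connective tissue. Mmp14, a membrane protease, is counted with the secreted matrix genes, and Clec3b, whose product is secreted, with the markers. Of the 46 genes, 43 had such a probe set, among 18193 genes so named on the array. Fbn1, Adamts2 and Ly6a had none in the annotation used here and are not analysed here. Hypoxia muscle came from adult male C57Bl/10 mice in a closed chamber whose oxygen was lowered from 21% to 8% over 1 week and then held at 8% for 7 days. Control muscle came from adult male C57Bl/10 mice kept under room conditions for the same 2 weeks. Each group held 4 Affymetrix whole-genome mouse arrays, which read the 3' part of transcripts, and the number of arrays limits the precision. The whole quadriceps was used and no cells were sorted, so that fewer fibroblasts and less RNA per fibroblast cannot be told apart. Living in the chamber and breathing less oxygen went together in every Hypoxia mouse and cannot be told apart either. Nothing in the labels beyond the naming of each quadriceps says that samples came from separate animals, so p-values measure the spread between these samples.

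Skeletal muscle fibres are embedded in a connective tissue that fibroblasts and fibro-adipogenic progenitors secrete. Its elastic fibres form when tropoelastin is deposited on fibrillin microfibrils with the help of fibulins, its basement membrane ties laminin to type IV collagen through nidogens and perlecan, and matricellular proteins such as tenascins, thrombospondins and periostin adjust how cells attach to it. Metalloproteinases cut these proteins and tissue inhibitors of metalloproteinases (TIMPs) hold the proteases in check.

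Most of these genes had lower transcript levels after hypoxia. The deposited values are MAS5 signals, on a linear scale, and each change is the Hypoxia mean minus the Control mean of log2(signal + 16), from limma with standard errors (SE), called at an adjusted p of 0.05 over all 13257 genes tested. Mfap2, Mfap4 and Mkx lay below the filter on dim probe sets, at a signal of about 90.2, which left 40 of the 43 genes to test. Of these 40, 28 were lower in Hypoxia, 2 were higher and 10 did not pass, where 18.8% of all tested genes were lower and 14.8% higher (33.6% in either direction). A fall of at least 1 on the log2 scale that passed was seen in 20 of the 40, against 8.91% of all tested genes. The median change was -0.98 over the 40 genes and -0.04 over all tested genes. Since 4 of the 40 (Pi16, Clec3b, Thy1 and Dpp4) had Hypoxia means under the filter's signal and passed through their Control level, these counts describe the tested genes only. The genes were also chosen with earlier results of these data known, so their shares beside the all-gene shares are a description and not a test. Of 29 tested secreted matrix genes 19 were lower and 1 was higher, with a median change of -0.82. Of 11 tested markers 9 were lower and 1 was higher, with a median of -2.77. That median was -1.85, -1.95, -1.94 and -2.04 without Control 1, 2, 3 and 4 in turn, -1.98 and -2.12 with constants of 1 and 64, -1.95 with a filter on the dimmest 60% and -1.95 on the mean of each gene's probe sets. In 24 of the 40 genes all Hypoxia signals lay below all Control signals, which held for 18.7% of all tested genes, and in 1 gene all lay above, which held for 14.8%.

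**Figure D1:**
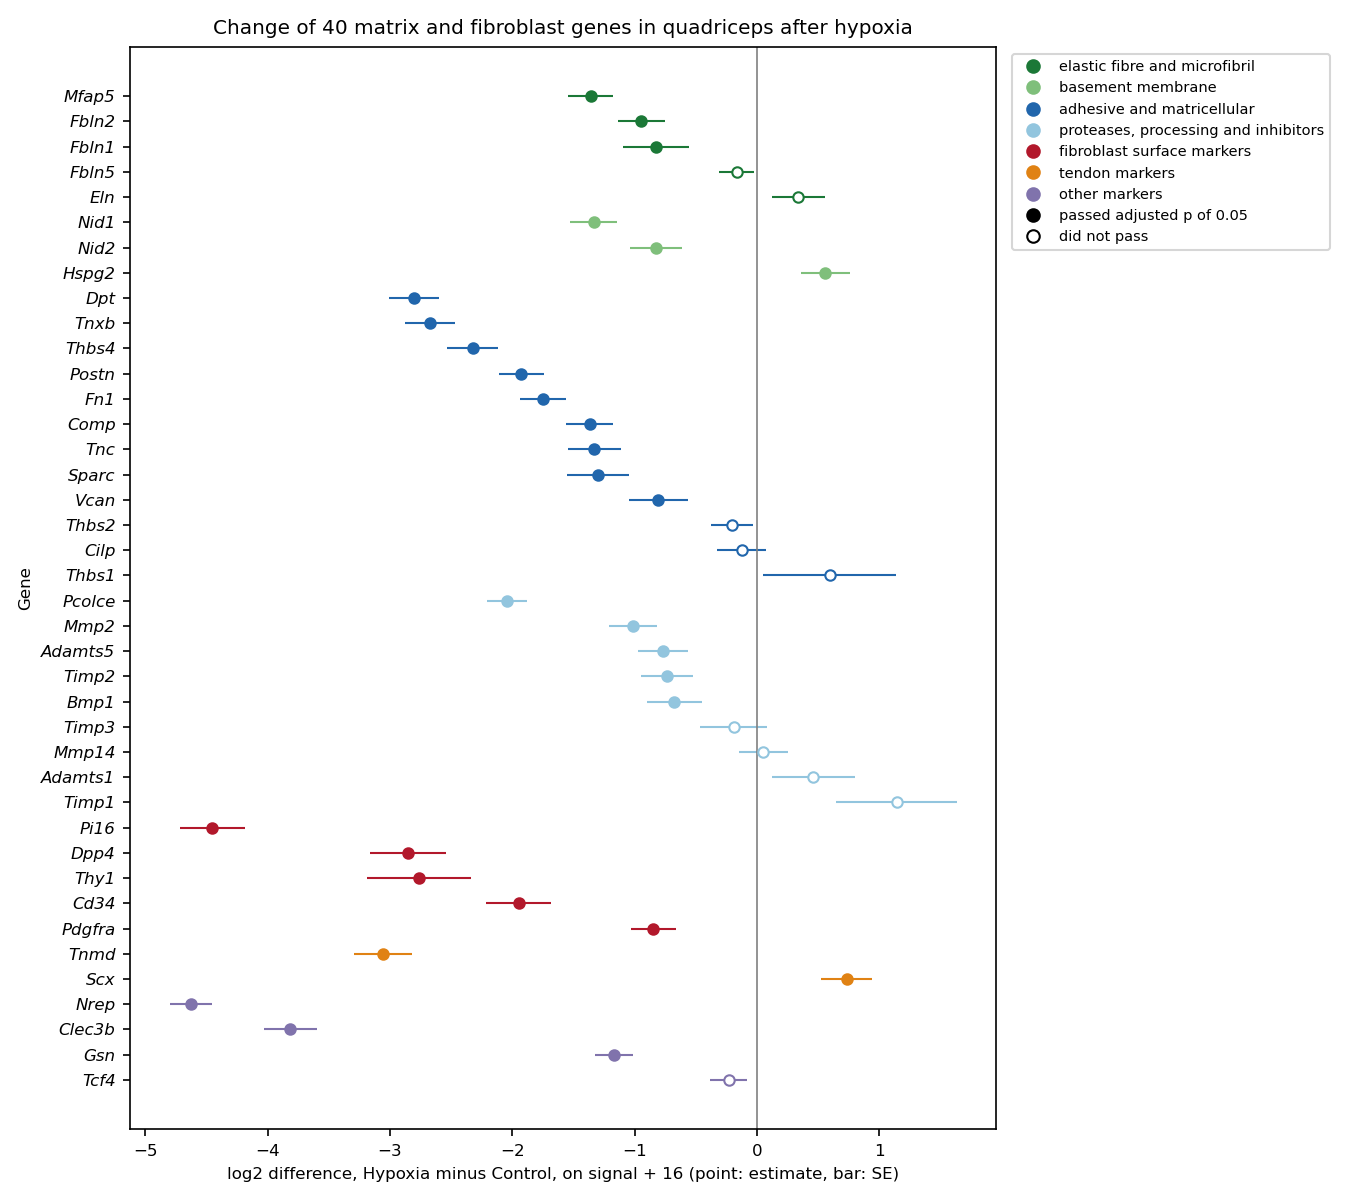
Log2 difference of Hypoxia minus Control (x axis) for the 40 tested genes (y axis), grouped by role, with bars for the SE of the limma fit and filled points for genes that passed. The points run from -4.63 for Nrep to 1.14 for Timp1, and the markers in red, orange and purple reach farther to the left than the secreted matrix genes in green and blue, whose lowest value is -2.80.

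RNA quality and the genes of several other cell types differed between the groups as well, and their part in the results was not tested. The 3' to 5' signal ratio of the Gapdh control probe sets, which is high where transcripts are broken, reached 3.44 in Hypoxia 1. It was 0.801 to 0.874 in Hypoxia 2, 3 and 4, against 0.776 to 0.807 in Control. The same ratio for actin was 2.53, 1.59, 1.40 and 1.51 in Hypoxia 1 to 4, against 1.09 to 1.25 in Control, so every Hypoxia array lay above every Control array. Without Hypoxia 1, 17 of the 29 secreted matrix genes and 9 of the 11 markers were lower. The cell type counts that follow stand against 18.8% lower and 14.8% higher among all tested genes, and the macrophage shares are near these. Of 10 skeletal muscle fibre genes 9 were lower (summed signal 329154 to 444774 in Hypoxia, 528513 to 637131 in Control). Adipocyte genes were lower in 4 of 4 tested, with sums of 1149 to 3963 in Hypoxia and 3394 to 19788 in Control. Of these, Lipe (-0.98) had its other probe set of opposite sign, and the groups overlapped for Adipoq (-2.02), both named after their values were seen. Mural cell genes were lower in 4 of 8 (19473 to 31973 in Hypoxia, 36610 to 43638 in Control) and endothelial genes in 3 of 10 (5729 to 9948 in Hypoxia, 7643 to 12445 in Control). Of 9 macrophage genes 2 were lower and 1 higher (10135 to 18628 in Hypoxia, 12194 to 17989 in Control). The sums include Cd68, the higher gene, at a mean of 4562 in Hypoxia and 289 in Control. Csf1r (-0.88, 1 of 2 other probe sets of opposite sign) and Adgre1 (-0.85) were lower. The others did not pass (-1.81 to -0.25), and the list median was -0.45. Of 6 tested neutrophil genes 3 were higher (3367 to 6131 in Hypoxia, 673 to 1205 in Control). The higher neutrophil genes were S100a8, S100a9 and Ngp (3.25, 3.94 and 1.24). S100a9 had a Control mean of 49.6, under the filter's signal, and passed the filter through its Hypoxia level. Camp, Csf3r and Elane did not pass (0.54, -0.11 and -0.01). These genes were named after their values were seen. Schwann cell genes were lower in 2 of 5 (4535 to 7087 in Hypoxia, 6575 to 9859 in Control). Among the marker genes with a probe set, Lep, Cxcr2 and Mpo were below the filter.

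The 5 fibroblast surface genes that could be tested were all lower, and no Hypoxia signal overlapped a Control signal in any of them. Among all tested genes 18.8% were lower, and 18.7% had every Hypoxia signal below every Control signal. Pi16, Thy1 and Dpp4 passed the filter through their Control level, and Dpp4 and Pdgfra are uncertain, as described below. Pi16 encodes a surface peptidase inhibitor of a widespread fibroblast population. Its signals were 28.3, 67.0, 66.9 and 44.5 in Hypoxia 1 to 4, against 1152, 1256, 2212 and 1256 in Control 1 to 4, a change of -4.45 ± 0.27 (SE, n = 4 each, adjusted p = 1.7e-07). Every Hypoxia array was near the dim end of the array's scale, so the size of the fall depends on the constant added before the logarithm. Thy1, the glycoprotein CD90 of fibroblasts and other stromal cells, had 24.1, 108, 146 and 27.8 in Hypoxia and 691, 473, 532 and 381 in Control. Hypoxia 1 and 4 were the low arrays for Thy1 and Hypoxia 2 and 3 the higher ones, and its change was -2.77 ± 0.42 (adjusted p = 0.000294). Cd34, a sialomucin of fibro-adipogenic progenitors that endothelial cells also carry, had 373, 406, 935 and 748 in Hypoxia and 2755, 2219, 2268 and 1844 in Control. That is a change of -1.95 ± 0.27 (adjusted p = 0.000121). Of the 10 endothelial genes, 3 were lower (Cldn5 at -1.09, Kdr at -0.95 and Egfl7 at -0.59, named after their values were seen), with a list median of -0.34 and a range of -1.09 to 0.16, and the part of endothelial cells in the fall of Cd34 was not tested.

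Dpp4 and Pdgfra need their other probe sets beside them. Dpp4, a surface peptidase, had 36.2, 27.7, 31.8 and 88.4 in Hypoxia and 371, 436, 397 and 412 in Control on its brightest probe set, a change of -2.85 ± 0.31 (adjusted p = 2.2e-05). Its other probe sets past the filter had differences of -1.07, which passed among all probe sets, and -0.15, which did not. The last of these became the brightest without Control 2, 3 or 4 and with a constant of 1, and Dpp4 then did not pass (-0.24, -0.10, -0.31 and -0.16), so the change of Dpp4 is uncertain. Pdgfra, the growth factor receptor that defines fibro-adipogenic progenitors, had 882, 751, 1247 and 876 in Hypoxia and 1621, 1831, 1935 and 1359.6 in Control, with a difference of -0.85 ± 0.18 (adjusted p = 0.00301). Its other probe sets had differences of -0.60 and 0.29 and did not pass, and the mean of its probe sets had a difference of -0.38 without passing (adjusted p = 0.0602), so Pdgfra is uncertain too. It had the smallest change of the surface genes.

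Tendon genes went in opposite directions. Tnmd encodes tenomodulin, a membrane protein of mature tendon cells, and had 137, 119.6, 131 and 146 in Hypoxia and 755, 1846, 1152 and 1386 in Control. The Hypoxia signals were tightly grouped and all were lower than the lowest Control signal, with a change of -3.06 ± 0.24 (adjusted p = 1.31e-06). Scx, the transcription factor scleraxis that directs tendon cell fate and acts upstream of Tnmd in mice, had 279, 434, 325 and 288 in Hypoxia and 179, 187, 229 and 171 in Control. All Hypoxia signals exceeded the highest Control signal, with a change of 0.73 ± 0.21 (adjusted p = 0.0151), and without Hypoxia 2 the change was 0.60 and did not pass (adjusted p = 0.0574). A dimmer probe set of Scx had a difference of 1.13 without passing. Mkx, a homeobox factor of tendon, was below the filter, with 12.1 to 90.5 in Hypoxia and 8.2 to 112.5 in Control, and was not tested.

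Of the 4 remaining markers 3 were lower, where 18.8% of all tested genes were, and Nrep had the lowest change of the 40 tested genes. Nrep encodes a small intracellular protein, also called P311, that is linked to transforming growth factor beta and to myofibroblasts. Its signals were 362, 247, 244 and 320.1 in Hypoxia and 8330.3, 6648, 6613 and 8788 in Control, a change of -4.63 ± 0.17 (adjusted p = 4.72e-09), and its other probe set had a difference of -4.16. Clec3b encodes tetranectin, a secreted plasminogen-binding protein, and had 41.0, 41.8, 53.8 and 62.5 in Hypoxia and 957, 1074, 710.1 and 898 in Control. All Hypoxia signals of Clec3b were under the filter's signal, and the change was -3.81 ± 0.21 (adjusted p = 1.09e-07). Gsn, the actin-severing protein gelsolin, whose plasma form muscle secretes, is bright in fibroblasts as well, and had 24687, 16666, 22674 and 22368 in Hypoxia and 47024, 53213, 52115 and 40868 in Control. It had a difference of -1.17 ± 0.15 (adjusted p = 8.62e-05). Among the 4 further probe sets past the filter, 3 passed, at -1.02 to -1.42, and 1 had a difference of -0.17 and did not pass.

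Tcf4 is listed among fibroblast markers under a name that is shared: the factor that marks connective tissue fibroblasts of muscle is the product of Tcf7l2, whereas the mouse gene Tcf4 encodes the E-box factor E2-2. On its brightest probe set Tcf4 had 1696, 1274, 1517 and 1410.2 in Hypoxia and 2019.7, 1699, 1521 and 1698 in Control, groups that overlap narrowly, with a difference of -0.23 ± 0.15 (adjusted p = 0.26). Among 5 further probe sets, 4 passed among all probe sets, at -0.52 to -1.13, and the dimmest, with a mean of 172 in Hypoxia and 73.3 in Control, went the other way without passing, so the change of Tcf4 is uncertain. Tcf7l2 itself was dim, at 110 ± 24.4 in Hypoxia and 145 ± 52.3 in Control (SD, n = 4 each), with a difference of -0.32 ± 0.32 (SE, adjusted p = 0.486).

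**Figure D2:**
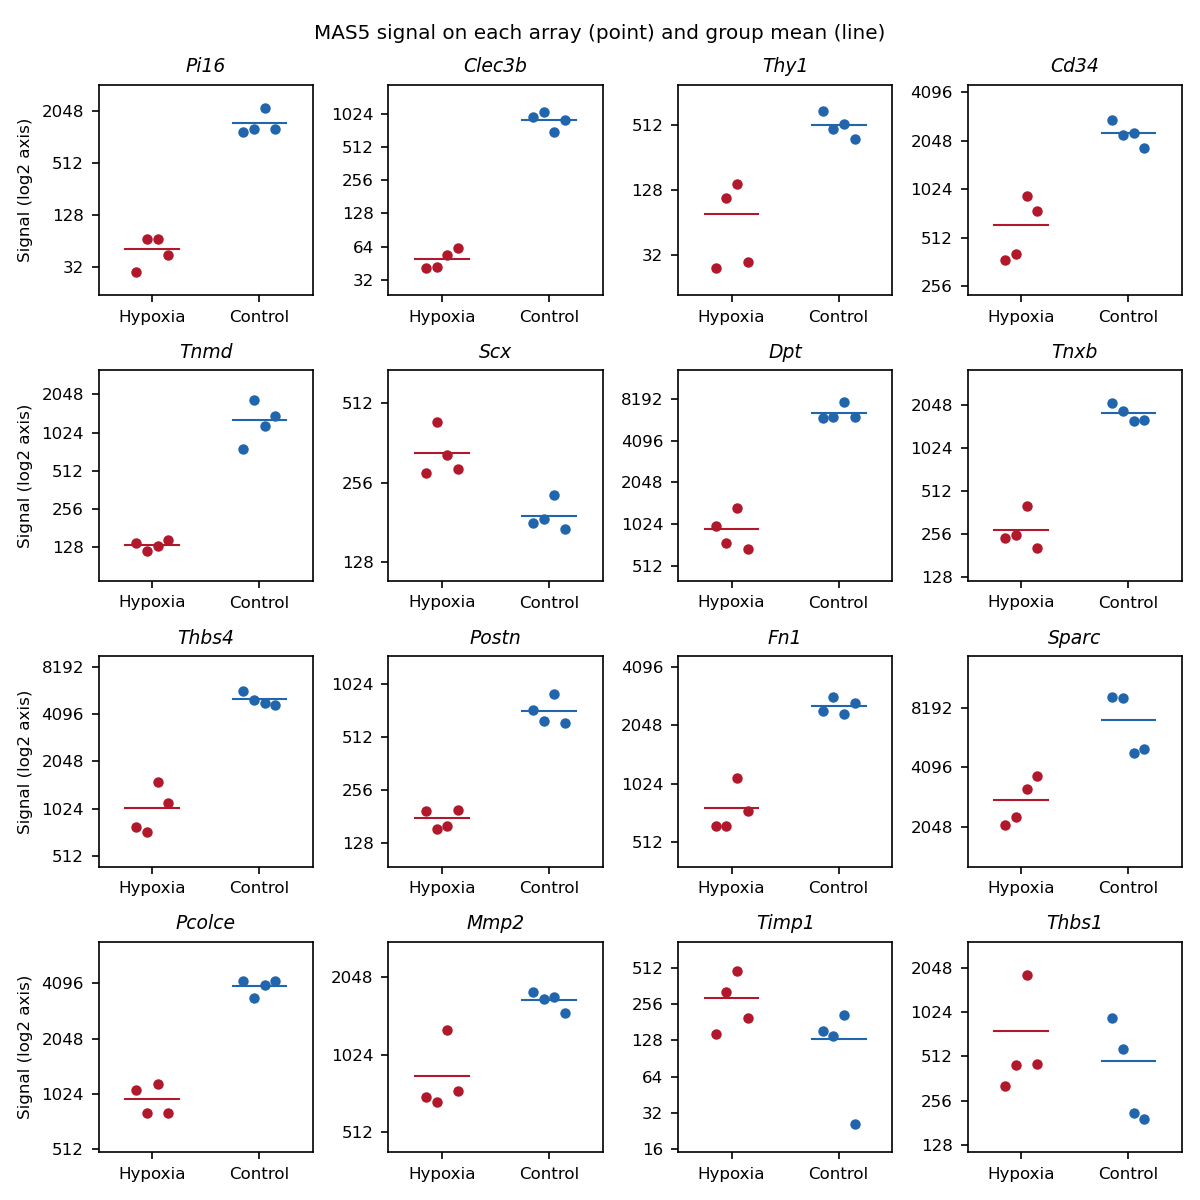
MAS5 signal of 16 genes on each array, on a log2 axis that differs between panels, with points for the 4 Hypoxia and the 4 Control arrays and a line at each group's mean. Hypoxia points lie below all Control points in every panel except those of Scx, where they lie above, and of Timp1 and Thbs1, where the groups overlap.

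Among the adhesive and matricellular genes 9 of 12 were lower, where 18.8% of all tested genes were. Dpt encodes dermatopontin, which binds decorin and helps collagen fibrils assemble, and had 986, 748, 1341 and 674 in Hypoxia and 5957, 6041, 7778 and 6019.7 in Control. The change of -2.80 ± 0.20 (adjusted p = 7.79e-07) was the strongest fall of the secreted matrix genes. Tnxb, the tenascin-X that spaces collagen fibrils, had 240.1, 251, 403 and 204 in Hypoxia and 2125, 1865, 1587 and 1599.7 in Control, with a change of -2.67 ± 0.20 (adjusted p = 1.15e-06). Its relative Tnc, the tenascin of developing and injured tissue, had 177, 162, 186 and 123 in Hypoxia and 439, 425, 324 and 547 in Control. Tnc had a difference of -1.33 ± 0.21 (adjusted p = 0.000423), and neither tenascin gene had overlapping groups.

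The thrombospondin family split. Thbs4, the form of tendon and muscle, had 788, 731, 1521 and 1123 in Hypoxia and 5756, 5014, 4828 and 4692 in Control, a change of -2.32 ± 0.21 (adjusted p = 4.74e-06). Comp, the pentameric cartilage oligomeric matrix protein of the same subgroup, had 229.6, 168, 275 and 267 in Hypoxia and 576, 659, 712 and 551 in Control, with a difference of -1.37 ± 0.19 (adjusted p = 0.000146). The groups did not overlap for either gene. Thbs1, the trimeric form that can activate latent transforming growth factor beta, had 322, 445, 1835 and 456 in Hypoxia and 931, 571, 211 and 191 in Control. Hypoxia 3 stood above all other arrays for Thbs1, and the difference of 0.59 ± 0.54 did not pass (95% interval -0.59 to 1.77, adjusted p = 0.443). Thbs2, the other trimeric form, had 483, 437, 626 and 444 in Hypoxia and 523, 671, 495 and 607 in Control. It had a difference of -0.20 ± 0.17 and did not pass (95% interval -0.58 to 0.17, adjusted p = 0.404), and its other probe sets had differences of 0.25 and -0.11. Whether the pentameric and trimeric forms differ in response was not tested.

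Fn1, the fibronectin that links integrins to collagen, had 623, 622, 1099 and 741 in Hypoxia and 2414, 2865, 2329 and 2669 in Control, a change of -1.75 ± 0.19 (adjusted p = 1.77e-05). Postn, the periostin of fibroblasts, had 194, 153, 160.3 and 198 in Hypoxia and 731, 633, 905 and 612 in Control, a change of -1.93 ± 0.18 (adjusted p = 7.61e-06). For these 2 genes the Control arrays all stood well above the Hypoxia arrays. Sparc, the collagen chaperone osteonectin, had 2080.3, 2285, 3174 and 3709 in Hypoxia and 9273, 9163, 4834 and 5052 in Control, where Control 1 and 2 were higher than Control 3 and 4. The change was -1.30 ± 0.25 (adjusted p = 0.00159), and its 2 other probe sets had differences of -1.63 and -0.25, the last without passing. The probe set at -1.63 had Control signals close together, at 6707, 6881, 6222 and 6151 in Control 1 to 4, so the wide Control split belongs to the brightest probe set. Vcan, the large proteoglycan versican, had 159, 252, 338 and 161 in Hypoxia and 443, 407, 328 and 398 in Control, with Hypoxia 3 inside the Control range. Its change of -0.81 ± 0.24 passed (adjusted p = 0.0208), but did not pass without Hypoxia 4, Control 1 or Control 2 (adjusted p = 0.0606, 0.0567 and 0.0512) or on the mean of its probe sets (adjusted p = 0.343). Cilp, a matrix protein of cartilage and of heart and muscle fibroblasts, had 1039.9, 751, 1431 and 1167 in Hypoxia and 1112, 1187, 1441 and 971 in Control, overlapping groups with a difference of -0.12 ± 0.20 (95% interval -0.56 to 0.31, adjusted p = 0.684).

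Elastic fibre genes were mixed. Mfap5, a microfibril-associated glycoprotein, had 789, 635, 1075 and 873 in Hypoxia and 2055, 2040.1, 2689 and 1897 in Control, a change of -1.36 ± 0.18 (adjusted p = 0.000101), and its other probe set had a difference of -0.63. Fbln2, a fibulin of elastic fibres and vessel walls, had 552, 506, 817 and 592 in Hypoxia and 1475, 1177, 1228 and 916 in Control, a change of -0.94 ± 0.19 (adjusted p = 0.00209). Fbln1, a fibulin that binds fibronectin, had 118, 236, 286 and 251 in Hypoxia and 310, 331, 546 and 403 in Control. It had a difference of -0.82 ± 0.27 (adjusted p = 0.033), and Hypoxia 1 was its lowest array. The call was lost without Hypoxia 1 or 2 or Control 3 or 4 (adjusted p = 0.0661, 0.0515, 0.103 and 0.0727), with no filter (0.0627) and on the mean of its probe sets (0.0800). Fbln5, the fibulin that elastic fibre assembly requires in mice, had 657, 680.4, 693 and 738 in Hypoxia and 856, 734, 727 and 803 in Control, with a difference of -0.17 ± 0.14 that did not pass (95% interval -0.47 to 0.14, adjusted p = 0.398). Eln, elastin itself, had 815, 732, 898 and 954 in Hypoxia and 431, 598, 939 and 805 in Control, with a difference of 0.34 ± 0.22 that did not pass (95% interval -0.14 to 0.82, adjusted p = 0.266). The microfibril genes Mfap2 and Mfap4 were too dim to test. Mfap2 had 45.5, 31.3, 48.1 and 41.5 in Hypoxia and 43.3, 231, 165 and 32.0 in Control, and Mfap4 had 29.0, 17.8, 9.80 and 10.7 in Hypoxia and 31.1, 34.9, 30.9 and 24.4 in Control.

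In the basement membrane group both nidogens, which bridge laminin and type IV collagen, were lower. Nid1 had 1412, 839.7, 1318 and 1009 in Hypoxia and 3667, 2573, 2859 and 2453 in Control, a change of -1.34 ± 0.19 (adjusted p = 0.000177), and its other probe set past the filter fell by 2.81. Nid2 had 218, 278, 373 and 292 in Hypoxia and 617, 383, 491 and 620.2 in Control, a change of -0.83 ± 0.21 (adjusted p = 0.00893). No Hypoxia signal of either nidogen reached the lowest Control signal. Hspg2, the heparan sulfate proteoglycan perlecan, was called higher on its brightest probe set, with 499.6, 768, 829 and 738 in Hypoxia and 388, 398, 562 and 549 in Control, overlapping groups and a change of 0.56 ± 0.20 (adjusted p = 0.047). Its other probe set went the other way, with signals of 63.2, 205, 233 and 255 in Hypoxia and 902, 663, 488 and 622 in Control and a change of -1.85, and the mean of its probe sets had a difference of -0.65 without passing (adjusted p = 0.0610), so the direction of Hspg2 is uncertain. Its call as higher was also lost without Hypoxia 2, 3 or 4 or Control 1 or 2, where the change was 0.47 to 0.53.

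Of the 9 tested genes for proteases, processing and inhibitors, 5 were lower, where 18.8% of all tested genes were. Pcolce enhances the cleavage of procollagen by the protease encoded by Bmp1, and had 1079, 802, 1158 and 800.3 in Hypoxia and 4228, 3405, 3996 and 4235 in Control, a change of -2.04 ± 0.16 (adjusted p = 1.61e-06). Its other probe set had a difference of -1.06. Bmp1 itself had 188, 233, 178 and 169 in Hypoxia and 271, 412, 371 and 232 in Control, with Hypoxia 2 and Control 4 at nearly the same signal. The change was -0.67 ± 0.22 (adjusted p = 0.0344). The call was lost after quantile normalization, median centring or with no filter (adjusted p = 0.0764, 0.0680 and 0.0698). It was also lost without Hypoxia 1, 3 or 4 or Control 2 or 3 (adjusted p = 0.0532 to 0.114). The other probe set of Bmp1 past the filter had a difference of -0.79 and passed among all probe sets (adjusted p = 0.0144). The mean of its probe sets, at -0.73, passed too (adjusted p = 0.0101). Mmp2, gelatinase A, had 699, 672, 1273 and 739 in Hypoxia and 1787, 1685, 1714 and 1484 in Control, where Hypoxia 3 stood apart from the other Hypoxia arrays but below Control. The change was -1.01 ± 0.20 (adjusted p = 0.00163), and its other probe set had a difference of -1.31. Mmp14, the membrane protease that activates the product of Mmp2 together with TIMP2, had 458, 541, 879 and 595 in Hypoxia and 562, 527, 558 and 675 in Control, with a difference of 0.05 ± 0.20 that did not pass (95% interval -0.38 to 0.48, adjusted p = 0.868).

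The inhibitors and aggrecanases gave mixed results. Timp2 had 2132, 1938, 3984 and 2781 in Hypoxia and 4037, 4867, 4908 and 3663 in Control on its brightest probe set, a change of -0.73 ± 0.21 (adjusted p = 0.0168) with Hypoxia 3 inside the Control range. Its 4 other probe sets past the filter fell by 1.00 to 1.77, and the call was lost without Hypoxia 2, Control 2 or Control 3 (adjusted p = 0.0577, 0.0515 and 0.0505). Timp3, the inhibitor that stays bound to matrix, had 1935, 1399, 2074 and 4242 in Hypoxia and 2473, 2666, 3022 and 2030.1 in Control, with a difference of -0.19 ± 0.27 that did not pass (95% interval -0.78 to 0.40, adjusted p = 0.641). Timp1, the inhibitor that is induced in inflammation, had 144, 321, 487 and 197 in Hypoxia and 153, 139, 207 and 26.0 in Control. Hypoxia 2 and 3 were above every Control array and Control 4 was far below the rest, and the difference of 1.14 ± 0.49 did not pass (95% interval 0.07 to 2.21, adjusted p = 0.0961).

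Adamts5, an aggrecanase that cuts versican, had 1043, 836, 632 and 612 in Hypoxia and 1374, 1692, 1218 and 1035 in Control, where Hypoxia 1 overlapped Control 4, with a difference of -0.77 ± 0.20 (adjusted p = 0.0112). Its other probe sets had differences of -0.96 and -0.14, the last without passing. Adamts1, a secreted protease that is induced early in inflamed and injured tissue, had 2038, 2494, 5069.7 and 1464 in Hypoxia and 2504, 2411, 1357 and 1272 in Control, where Hypoxia 3 was above every other array. It had a difference of 0.46 ± 0.34 and did not pass (95% interval -0.27 to 1.19, adjusted p = 0.326).

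**Figure D3:**
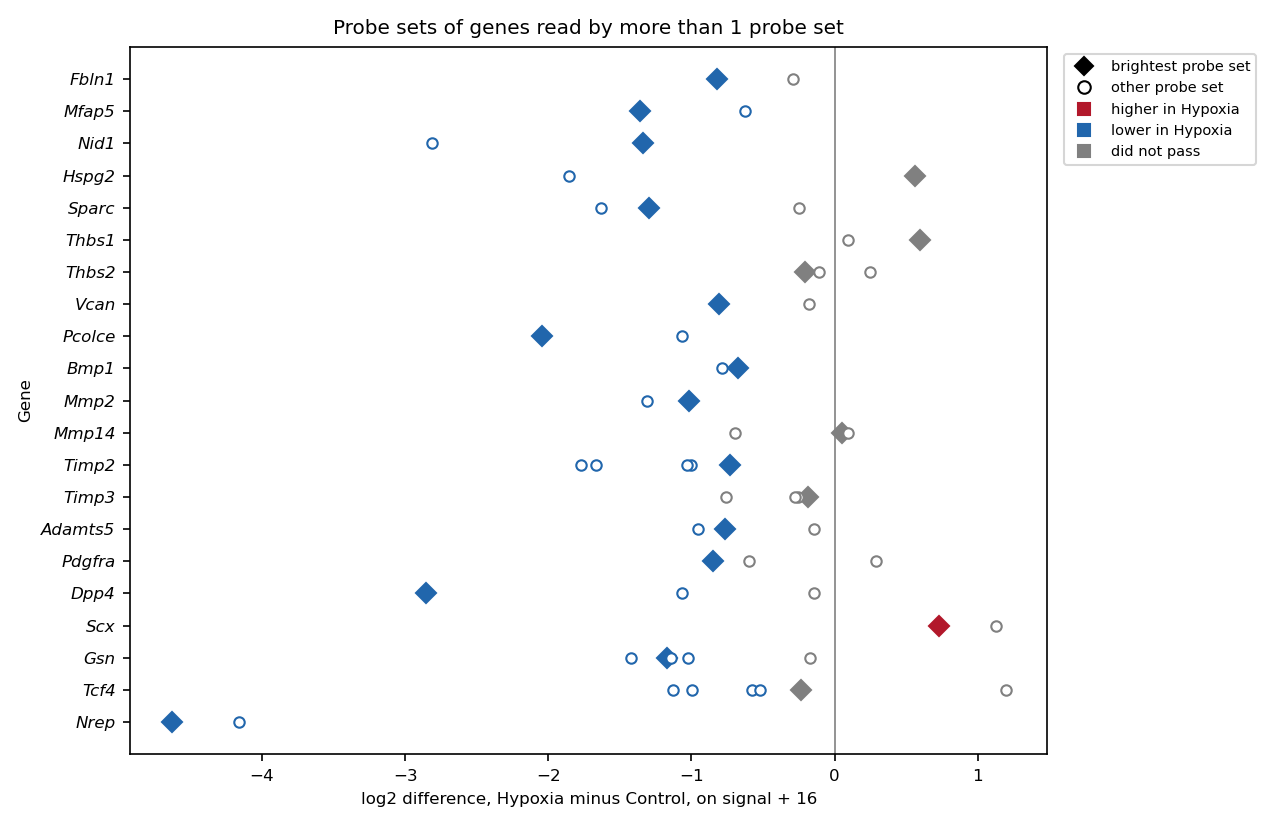
Log2 difference of Hypoxia minus Control (x axis) for each probe set past the filter of the 21 genes (y axis) that more than 1 such probe set reads, with diamonds for the brightest probe set and colours for calls adjusted over all 27022 probe sets. Of 39 other probe sets, 34 had the sign of the brightest and 5 the opposite sign, those of Hspg2, Thbs2, Mmp14, Pdgfra and Tcf4.

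Probe sets of a gene were mostly of like sign, though not of like size. Tested one by one over all 27022 probe sets past the filter, 49 of the 79 probe sets of these genes were lower and 1 was higher, where 16.4% of all probe sets were lower and 12.5% higher. Of 30 called genes, 14 rested on a sole probe set past the filter, and 2 (Hspg2 and Pdgfra) had another of opposite sign.

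Within the Hypoxia group the arrays differed in an ordered way that was looked for after the values were seen. Hypoxia 3 was the highest of the 4 Hypoxia arrays in 24 of the 40 tested genes and the lowest in 1, whereas it was the highest in 28.0% and the lowest in 23.5% of all tested genes. Hypoxia 2 was the lowest in 18 of the 40, against 23.0% of all tested genes. Over the 28 genes called lower, the median distance from the Control mean was -1.13 in Hypoxia 3, against -1.64 in Hypoxia 1, -1.77 in Hypoxia 2 and -1.53 in Hypoxia 4. Among Control arrays the same median ran from -0.17 in Control 4 to 0.05 in Control 1, and Control 4 was the lowest Control array in 20 of the 40 genes, against 25.5% of all tested genes. Hypoxia 3 had the lowest 3' to 5' ratios of the Hypoxia arrays, 0.801 for Gapdh, inside the Control range, and 1.40 for actin, above the Control range of 1.09 to 1.25, and the part of RNA quality in this order was not tested. Hypoxia 1, with the Gapdh ratio of 3.44, was the lowest array in 14 of the 40 genes, where it was the lowest in 33.1% of all tested genes.

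**Figure D4:**
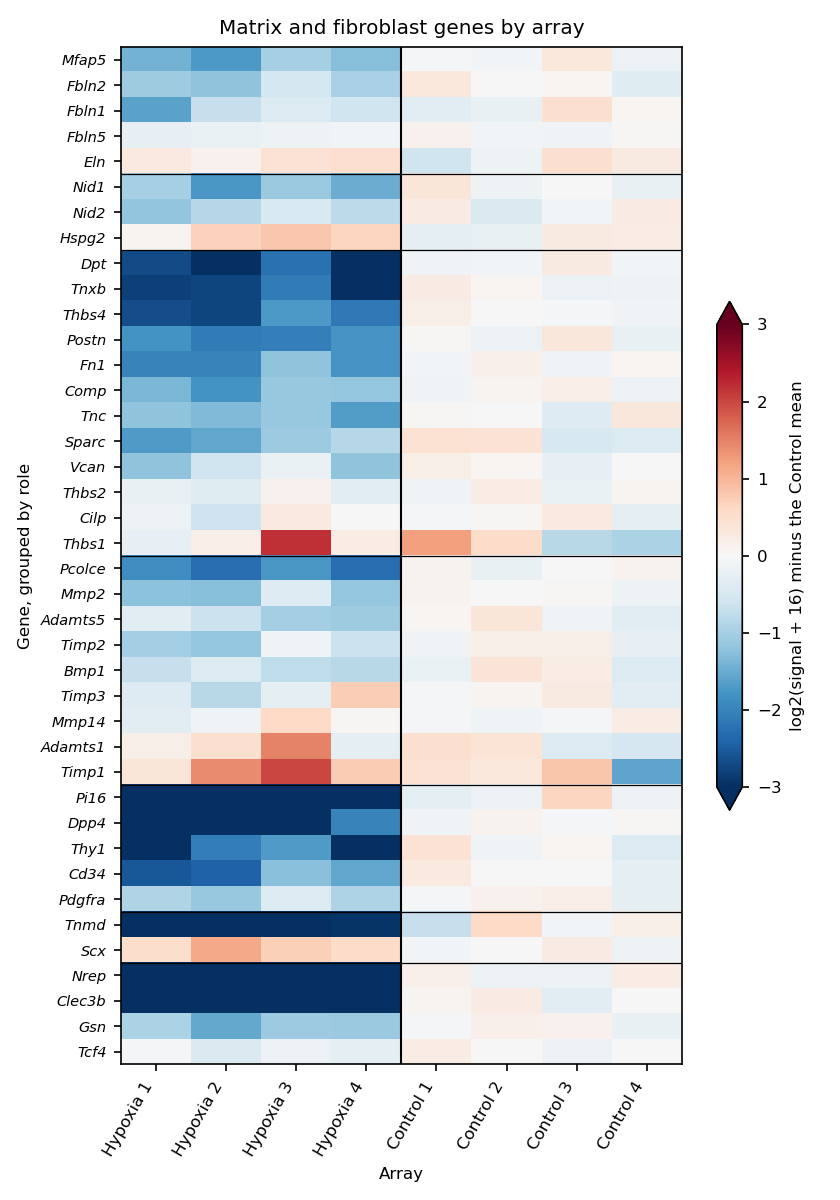
Log2(signal + 16) minus the Control mean of the same gene (colour, capped at 3 in both directions) for the 40 tested genes (rows, grouped by role) on the 4 Hypoxia and the 4 Control arrays (columns). Blue fills most Hypoxia columns, is paler in Hypoxia 3, where the median over the genes called lower is -1.13, and gives way to red in that array most strongly for Thbs1, Timp1 and Adamts1, none of which passed.

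Promoter sequence was examined for genes that fell together. RefSeq promoter entries of the mouse assembly GRCm38.p6, covering 250 bases before to 50 bases after an annotated start, were found for 29 of the 46 genes (36 entries). The letters searched on both strands were ACGTG, the core bound by hypoxia-inducible factors, GGAATG, a site of TEAD factors, TGANTCA, a site of AP-1, and TATAAA, the TATA box, and no matches of different motifs overlapped in these entries. ACGTG stood in 4 of the 36 entries (11.1%), against 19.6% of all 32851 promoter entries, and among the genes called lower it stood in Fbln1 alone of 18 with an entry. GGAATG stood in 5 of 36 (13.9%, against 14.7% of all), TGANTCA in 1 of 36 (2.78%, against 7.81%) and TATAAA in 7 of 36 (19.4%, against 13.6%). These matches describe letters and not binding. The promoters shown belong to the 5 genes called lower that had 1 entry and the lowest fitted changes, leaving out Nrep. Dpp4 is among them by its brightest probe set, and its change is uncertain, as described above. They are given 5' to 3' on the gene's strand, with matches in capitals (a match on the other strand appears as its complement, CATTCC for GGAATG).
Pi16, chr17:29318632-29318931, forward strand: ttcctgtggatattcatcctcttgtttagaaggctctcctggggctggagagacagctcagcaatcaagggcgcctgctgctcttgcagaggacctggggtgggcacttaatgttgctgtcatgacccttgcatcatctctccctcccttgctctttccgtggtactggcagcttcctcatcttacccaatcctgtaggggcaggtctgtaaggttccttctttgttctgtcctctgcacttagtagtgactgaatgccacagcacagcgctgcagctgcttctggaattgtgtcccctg
Tnmd, chrX:133850758-133851057, forward strand: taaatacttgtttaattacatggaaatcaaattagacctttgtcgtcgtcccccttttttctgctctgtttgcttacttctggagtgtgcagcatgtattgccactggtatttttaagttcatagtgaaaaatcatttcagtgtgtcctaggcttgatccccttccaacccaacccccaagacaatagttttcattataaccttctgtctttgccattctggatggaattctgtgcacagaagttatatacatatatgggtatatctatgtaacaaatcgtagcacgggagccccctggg
Dpp4, chr2:62412182-62412481, reverse strand: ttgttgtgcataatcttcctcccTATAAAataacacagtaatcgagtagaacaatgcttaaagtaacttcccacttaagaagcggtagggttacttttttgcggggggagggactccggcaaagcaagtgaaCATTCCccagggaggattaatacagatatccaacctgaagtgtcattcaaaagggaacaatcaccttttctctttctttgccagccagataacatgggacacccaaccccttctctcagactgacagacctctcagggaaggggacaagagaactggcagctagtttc
Dpt, chr1:164796413-164796712, forward strand: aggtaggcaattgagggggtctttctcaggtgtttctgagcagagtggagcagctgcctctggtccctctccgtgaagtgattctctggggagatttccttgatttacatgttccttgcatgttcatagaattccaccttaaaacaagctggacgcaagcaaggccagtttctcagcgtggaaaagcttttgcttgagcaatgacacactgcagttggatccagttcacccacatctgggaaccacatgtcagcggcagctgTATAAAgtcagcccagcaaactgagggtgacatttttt
Tnxb, chr17:34670285-34670584, forward strand: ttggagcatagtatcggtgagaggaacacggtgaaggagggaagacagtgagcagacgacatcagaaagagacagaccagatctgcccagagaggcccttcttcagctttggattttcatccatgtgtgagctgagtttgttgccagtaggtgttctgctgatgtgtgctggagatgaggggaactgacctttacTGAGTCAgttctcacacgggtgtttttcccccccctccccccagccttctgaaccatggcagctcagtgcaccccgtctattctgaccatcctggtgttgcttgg
None of these 5 windows holds ACGTG. The promoter of Dpp4 holds a TATAAA and a GGAATG on the other strand, that of Dpt a TATAAA and that of Tnxb a TGANTCA, and those of Pi16 and Tnmd hold no match to the 4 motifs.

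Related genes outside this set gave a wider view of the same tissue. The lists of related genes, too, were chosen with earlier results of these data known, so their shares are a description. Of 24 tested genes in a list of other matrix glycoproteins, 15 were lower and 2 higher, with a median change of -0.79, where 18.8% of all tested genes were lower and 14.8% higher. Among those lower, Chad, Ecm2 and Fbln7 had Hypoxia means under the filter's signal (18.3, 27.5 and 62.9). They passed the filter through their Control level, so these counts describe the tested genes only. The smallest p-values among them belonged to Efemp1, a fibulin-like protein (-2.70 ± 0.19, 316 ± 76.0 in Hypoxia and 2108 ± 280 in Control, SD), Npnt, the basement membrane protein nephronectin (-2.44 ± 0.18), Abi3bp (-1.74 ± 0.16) and Smoc2, a SPARC relative (-1.38 ± 0.16). The 2 that were higher, named after their values were seen, were Spock2, a SPARC-family proteoglycan (1.51 ± 0.21), and Mgp, the calcification inhibitor matrix Gla protein (0.79 ± 0.22). Of 20 tested genes in a list of other proteases and inhibitors, 6 were lower and 0 higher by limma (2 higher at an unadjusted p under 0.05), with a median of -0.19, against the same 18.8% and 14.8%. The lower genes included Serpinf1, the secreted serpin PEDF (-3.21 ± 0.21, 412 ± 156 in Hypoxia and 3783 ± 429 in Control, SD), Reck, a membrane inhibitor of metalloproteinases (-1.37 ± 0.16), Serping1, the complement C1 inhibitor (-1.36 ± 0.18), and Serpinh1, the collagen chaperone HSP47 (-1.57 ± 0.21). Htra3, also called lower (-1.33 ± 0.21) and named after its value was seen, had both other probe sets of opposite sign, so Htra3 is uncertain.

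Of 19 tested genes in a list of other fibroblast genes, 11 were lower and 2 higher, with a median of -0.80, where 18.8% of all tested genes were lower and 14.8% higher. Fap, a surface peptidase of fibroblasts, had a difference of -1.90 ± 0.17, Fstl1, a secreted follistatin relative, of -1.63 ± 0.17, and Cd248, the surface protein endosialin, of -2.80 ± 0.31, with 38.3 ± 8.07 in Hypoxia and 373 ± 123 in Control (SD, n = 4 each). Cd248 passed the filter through its Control level, so these counts too describe the tested genes only. S100a4, a calcium-binding protein that macrophages also make, was higher by 1.94 ± 0.22. The other gene called higher, named after its value was seen, was Pdgfrb, which mural cells also express (0.53 ± 0.18), and its other probe set had the opposite sign, so Pdgfrb is uncertain. Among the genes called lower, the other probe set of Fndc1 (-1.64 ± 0.20) had the opposite sign, so Fndc1 is uncertain too. For Prrx1 (-0.54 ± 0.19) 1 of 4 other probe sets had the opposite sign. Fndc1 and Prrx1 were named after their values were seen.

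Transforming growth factor beta signalling, which drives matrix gene expression in fibroblasts, was covered by a list of 20 genes, of which 4 were lower and 4 higher, with a median of -0.17. These shares are near the 18.8% and 14.8% of all tested genes. Smad3, the signal-carrying factor, had a difference of -1.86 ± 0.18, with 808 ± 146 in Hypoxia and 2973 ± 537 in Control (SD, n = 4 each). Ltbp4, which stores the latent growth factor in matrix, had a difference of -2.06 ± 0.28. The receptor genes Tgfbr3 and Tgfbr1 were higher by 0.87 ± 0.16 and 0.63 ± 0.14, but both other probe sets of Tgfbr1 had the opposite sign, so Tgfbr1 is uncertain. Smad2, also called higher (0.59 ± 0.18) and named after its value was seen, had its other probe set of opposite sign and is uncertain too.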

How the data were processed

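Quadriceps RNA was hybridised to 8 arrays, 1 per sample, and groups come from the sample titles. The deposited values are MAS5 signal intensities, 1 per probe set, per the submitters' processing notes; the version is not given in the sources used here. MAS5 subtracts mismatch background and scales each array by 1 factor. The 2% trimmed mean was 500.0 on every array, no 2 arrays were identical, and no further scaling entered the main analysis.

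Of 45101 probe sets, 64 controls and the dimmest 40% were left out, which left 27022. The annotation gave 34945 probe sets 1 symbol, 932 several and 9160 none, and 99.42% of the symbols matched GRCm38.p6 genes. Each gene took its probe set with the highest mean. Log2(signal + 16) was compared with limma 3.58.1 in R 4.3.3 (intensity trend, two-sided, Benjamini-Hochberg over 13257 genes, threshold 0.05), after a test of the procedure on simulated data. Dim genes' folds are understated by the constant. Alternatives changed the scaling, constant, filter, probe set rule, variance model and block, left out each array in turn and, added after seeing the data, adjusted over all probe sets. All listed genes are named, and of each related list up to 4 called genes with the smallest p. Genes and lists were chosen with earlier results of these data known.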

Additional observations from a re-analysis of the deposited data

Results flagged for a closer look

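In 80 sets of 4 arrays (40 genes in each group), 3 held an array whose distance from its nearest neighbour, set against the whole range of log2 values, exceeded Dixon's 95% critical value, and chance gives about 1 in 20. Mmp2 had a signal of 1273 in Hypoxia 3, while Hypoxia 1, 2 and 4 had 672 to 739. Dpt had 7778 in Control 3, against 5957 to 6041 in the other Control arrays. Pi16 had 2212 in Control 3, against 1152 to 1256 in the other Control arrays.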

How the results depend on the processing

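Of the 30 called genes, 22, all of them lower, kept the call in every alternative that tested them, and Fbln1, Hspg2, Vcan, Bmp1, Timp2, Pdgfra, Dpp4 and Scx lost it in at least 1. Secreted matrix genes called lower numbered 17 to 19, and markers called lower 7 to 9, under the alternatives with all arrays. Leaving out 1 array gave 16 to 18 and 8 to 9, with secreted matrix genes called higher at 0 to 1 and markers called higher at 0 to 1. The call of Hspg2 as the 1 higher secreted matrix gene was lost (0 higher by limma) with no filter, on the mean of probe sets, without the intensity trend and when adjusted over all probe sets, where 2, 1, 1 and 2 were higher at an unadjusted p under 0.05. The marker median of -2.77 was -1.98 with a constant of 1, -2.12 with 64, -2.36 with no filter, -1.95 with a 60% filter and -1.95 on the mean of probe sets. It ran from -2.76 to -1.85 without 1 array, and in the fits without Control 1, 2, 3 or 4 (-1.85, -1.95, -1.94 and -2.04) another probe set of Dpp4 had become the brightest. The median of the secreted matrix genes ran from -0.96 to -0.70 without 1 array. Changes that turned sign were Hspg2 (-0.65) and Mmp14 (-0.18) on the mean of probe sets, and, leaving out 1 array, Cilp (-0.26 to 0.044, turning without Hypoxia 2), Timp3 (-0.50 to 0.029, turning without Hypoxia 2) and Mmp14 (-0.13 to 0.18, turning without Hypoxia 3). Hspg2 alone of these had been called, and for the last 3 the cause was not tested. With the replicate number as a block 2 secreted matrix genes were higher, the addition being Timp1 (adjusted p = 0.0404), and no other call changed. The correlation of same-numbered samples' deviations was -0.07 to 0.00, which showed no pairing by number but cannot exclude a weak one. Quantile normalization and median centring moved the median of all genes from -0.04 to 0.04 in each case. Dim signals limit Pi16, Clec3b, Thy1 and Dpp4 in Hypoxia.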
